A study of Xenopus laevis with 35 samples.

Results

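The comparison of PTU with control brain at 96 h set 3 arrays of PTU-exposed tadpoles against 3 arrays of control tadpoles, 6 of the 35 arrays in the series. The arrays were chosen by the compound and time in their labels, and no measured value entered the choice. All animals were tadpoles of the frog Xenopus laevis staged by the Nieuwkoop and Faber series (NF stage 54), early in metamorphosis. Controls were kept without a chemical, and the PTU group was exposed to PTU at 20 mg/L for 96 h. PTU is propylthiouracil, the usual reading of a short form that the labels do not spell out. Brain RNA came from 10 tadpoles per treatment and time, 5 from each of 2 tanks, and was made into 3 separate pools. Each array therefore stands for a pool, and p-values measure the spread between pools and arrays, not between single animals. As the 3 pools of a group came from 2 tanks, they are not 3 separate exposures. Other arrays covered the same groups at 24 and 48 h, and also MMI at 100 mg/L and PER at 4 mg/L.

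Propylthiouracil blocks thyroid peroxidase, the enzyme that puts iodine onto thyroglobulin in the thyroid, so that less thyroid hormone is made. In tadpoles, thyroid hormone binds nuclear receptors that pair with retinoid X receptors, and it drives metamorphosis, including cell division, cell death and neuronal maturation in the brain. The protocols say that the same exposures had earlier been found to enlarge the thyroid and slow metamorphosis, and the arrays measured brain transcripts days after exposure began.

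The array carried 449 probes, each spotted as 2 neighbouring spots. A gene name was available for 250 probes, standing for 243 genes, and the other probes are called by their ID. Values are scaled intensities on a linear scale after background subtraction, so values below 0 occur. A probe counts as above background where it exceeds 2 background SDs of its array. The 6 arrays were not equally clean. Background SDs were 987 to 1102 on the control arrays and 338 to 739 on the PTU arrays. Between 79 and 126 probes were above background on the control arrays, against 113 to 152 on the PTU arrays. Over the 62 brighter probes of the series, pairs of control arrays correlated at 0.342 to 0.640 and pairs of PTU arrays at 0.756 to 0.887. Pairs of a control and a PTU array correlated at 0.411 to 0.694. Control replicate 3 correlated better with every PTU array than with either other control array. The part of these array differences in any result below was not tested. As whole brains were pooled, fewer cells of a type and less RNA per cell cannot be told apart.

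Of 439 probes tested, 5 were called at an adjusted p under 0.05 in limma, which is 1.14%, and all 5 were higher with PTU. They were ldha.L, the enzyme that turns pyruvate into lactate, cct3.S, a subunit of the chaperonin that folds tubulin and actin, xnf7.L, a tripartite-motif protein known in Xenopus to bind microtubules, btg1.S, known as a brake on cell division, and probe 809, which has no gene name. No probe was called lower (0%), although 50 probes (11.4%) had an unadjusted p under 0.05, of which 31 were higher (7.06%) and 19 lower (4.33%). The median fitted change over all 439 probes was -0.01 on the log2 scale, with 215 probes above 0 and 222 below it.

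The transcript of ldha.L measured 286, 763 and 1821 in control replicates 1, 2 and 3 and 6774, 4033 and 5606 with PTU. The groups did not overlap, and no control array but every PTU array was above background. The level with PTU was at least 2.50-fold that of the controls, and the fitted log2 change was 2.72 (SE 0.55, limma adjusted p = 0.00731). That bound sets the mean of the PTU arrays against the lowest signal above background on each control array, or the probe's own signal where that was higher.

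The chaperonin subunit cct3.S was the brightest of the called probes. It measured 1934, 2631 and 3343 in the controls, a mean of 2636 ± 705 (SD, n = 3), and 8021, 14226 and 11891 with PTU, a mean of 11379 ± 3134 (SD, n = 3). Every PTU array lay above every control array, and 2 of the 3 control arrays were above background. The fitted log2 change was 2.08 (SE 0.47, limma adjusted p = 0.0139).

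For xnf7.L the controls gave 3582, -451 and 264, and the PTU arrays gave 3760, 4799 and 6671. The groups did not overlap, but control replicate 1 came close to the lowest PTU array, and the other 2 controls were not above background. The fitted log2 change was 3.53 (SE 0.80, limma adjusted p = 0.0139).

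The growth-arrest gene btg1.S was dim in all 6 arrays, at -7, -264 and 1169 in the controls and 1614, 1726 and 2446 with PTU. It was above background on none of the controls and on all PTU arrays, but the cutoffs differed. They were 1973.2 to 2203.5 on control arrays and 676.1 to 1478.5 on PTU arrays. The PTU values of 1614 and 1726 lay under every control cutoff, so this contrast in detection is not one of level alone. The fitted log2 change was 3.47 (SE 0.76, limma adjusted p = 0.0139), but the bound on its fold came out under 1, so no fold is given.

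Probe 809 measured -981, -627 and -601 in the controls and 1783, 4195 and 3011 with PTU. Its level with PTU was at least 1.33-fold the control level, and the fitted log2 change was 5.42 (SE 0.50, limma adjusted p = 1.14e-08). All control arrays lay below 0 and so share 1 value on the log2 scale. They add no spread, and this p can be too small.

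The 5 calls differed in how they held. With arrays scaled by the median of all probes, probe 809 kept its call and the other 4 lost theirs, at limma adjusted p-values of 0.0950 for ldha.L and btg1.S, 0.0505 for xnf7.L and 0.165 for cct3.S. With only the 6 arrays in the fit none was called, at limma adjusted p-values of 0.0958 for probe 809 and 0.555 to 0.818 for the others, while 29 probes had an unadjusted p under 0.05. The size of the changes moved too. With the offset set to the median background SD, 603, the fitted log2 change of probe 809 was 2.52 and that of btg1.S was 1.54. The change of xnf7.L was 2.19 without control replicate 2, 5.07 without control replicate 1 and 1.85 on even spots.

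**Figure D1:**
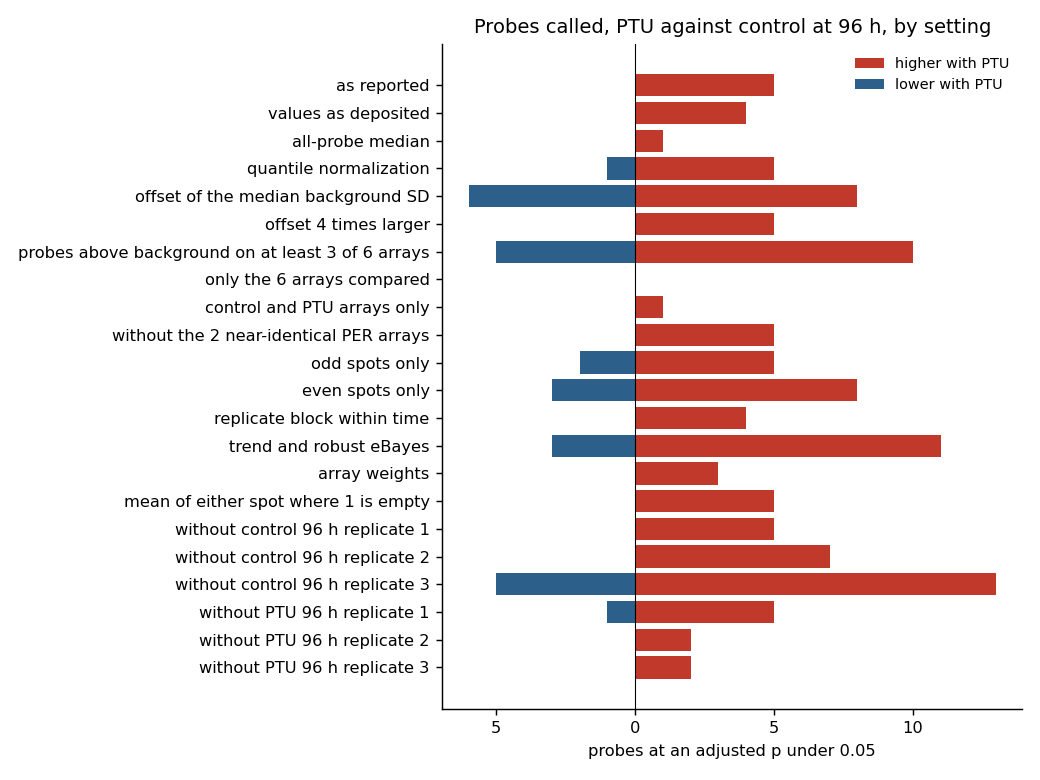
Number of probes called higher and lower with PTU at 96 h under each way of processing the values. The count is 5 as reported and runs from 0 with only the 6 arrays in the fit to 18 without control replicate 3.

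**Figure D2:**
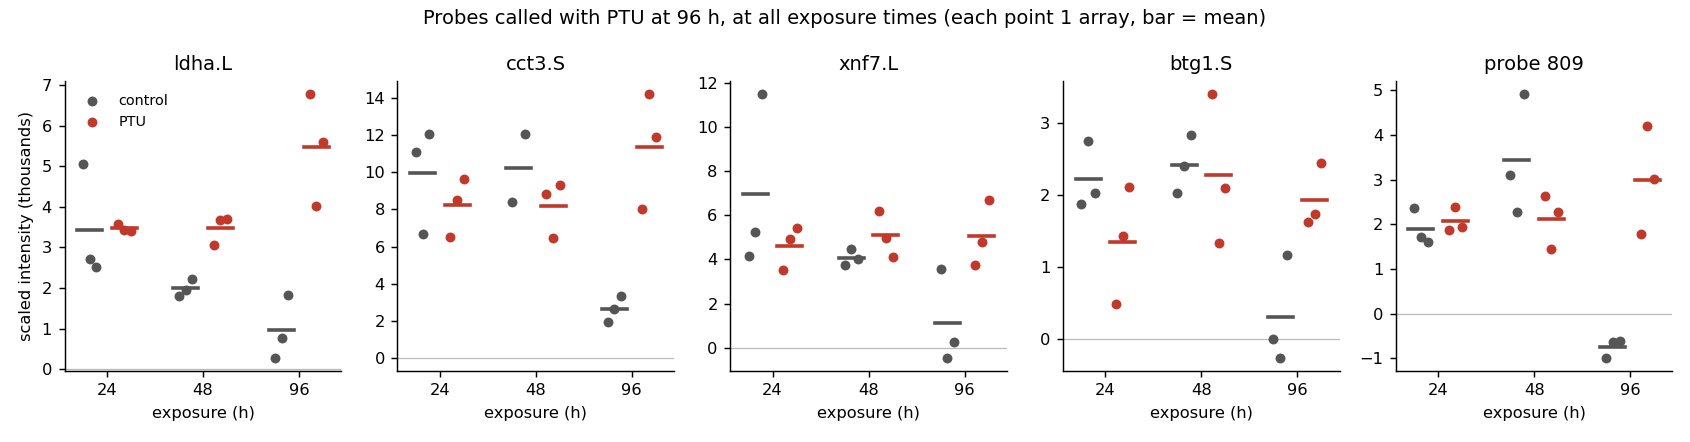
Scaled intensity of the 5 called probes on each control and PTU array at 24, 48 and 96 h; points are arrays and bars are group means. At 96 h the PTU arrays of ldha.L lie at 4033 to 6774 and the controls at 286 to 1821. For all 5 probes the 96 h controls have the lowest group mean in their panel, and a low control there is part of what the calls selected.

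The 96 h differences were set against those at 24 and 48 h, which have control arrays of their own. None of the 5 called probes was called at 24 or 48 h. At 24 h only 7 of 435 probes (1.61%) were called, all lower, so this does not mark the 5 as particular to 96 h. No share over all probes is given for 48 h. Being uncalled or without overlap at that time is therefore no result about the 5. The fitted PTU change of cct3.S was -0.25 at 24 h and -0.31 at 48 h, and that of xnf7.L was -0.47 and 0.30. That of probe 809 was 0.14 and -0.66, and that of btg1.S was -0.89 and -0.17. The change of ldha.L was 0.09 and 0.78, and at 48 h its PTU arrays, all at or above 3056, already lay above the controls, all at or below 2226. The test of the 96 h change minus the mean of the earlier changes called 2 of 433 probes (0.462%). These were probe 809, with a difference of 5.68 (limma adjusted p = 3.08e-07), and btg1.S, with a difference of 4.00 (limma adjusted p = 0.0447). As the 96 h controls of probe 809 share 1 value on the log2 scale, its p can be too small here too. The difference was not called for cct3.S (2.36, limma adjusted p = 0.0661), ldha.L (2.29, limma adjusted p = 0.104) or xnf7.L (3.61, limma adjusted p = 0.104).

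The controls of cct3.S averaged 9952 at 24 h, 10236 at 48 h and 2636 at 96 h, while the PTU groups averaged 8223, 8203 and 11379. Its 48 h control mean leaves out replicate 1, which has no value. For xnf7.L the control means were 6960, 4079 and 1132 and the PTU means 4623, 5082 and 5077. For btg1.S the control means were 2217, 2418 and 299 and the PTU means 1341, 2270 and 1929. Fitted on the log2 scale, the 96 h level minus the mean of 24 and 48 h was -1.91, -3.57 and -3.73 in controls and 0.45, 0.05 and 0.27 with PTU for cct3.S, xnf7.L and btg1.S. The 96 h controls are the arrays that enter the comparison with PTU, so a low control there is part of what the calls selected. Every control array of cct3.S at 96 h lay under the lowest earlier control, 6668. The same was so of btg1.S, whose lowest earlier control was 1874, of probe 809 (1614) and of xnf7.L (3768). Only 3 of the 6 earlier control arrays were above background for btg1.S, and 3 of 6 for probe 809, against all 6 for xnf7.L. The fall of the first 2 therefore starts near background. For ldha.L, 2 of the 3 controls were under the earlier minimum of 1801, while the mean with PTU went from 3469 and 3471 to 5471. Probe 809 with PTU went from 2069 and 2110 to 2996.

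Among the 5 probes of the glycolysis list, 1 was called higher and none lower, beside 1.14% of all probes called, and the median change was 0.96 against -0.01 over all probes. Besides ldha.L, the groups did not overlap for 2 members, where 35 of all 439 probes (7.97%) had PTU above control without overlap and 25 (5.69%) had PTU below. The probe of gapdh.S, the glyceraldehyde-phosphate dehydrogenase of mid-glycolysis, gave 22709, 43985 and 39020 in controls and 66094, 88914 and 49069 with PTU (log2 change 0.96, SE 0.45, limma adjusted p = 0.425). Control means were 41952 and 40348 at 24 and 48 h and PTU means 82870 and 75123, so the gap between the groups was already present at the earlier times. At 24 h all 5 probes of the ribosomal protein gene rpl8.S also averaged higher with PTU, although on probe 929 the groups overlapped. Probe 39 read 103362, 110787 and 62087 with PTU and 39136, 41043 and 36315 in controls. The 24 h gap was thus not particular to gapdh.S. Pyruvate kinase, pkm.S, gave -716, 12371 and 14352 in controls and 15603, 15848 and 17996 with PTU (log2 change 2.85, SE 1.09, limma adjusted p = 0.242). Its fitted change rested on control replicate 1. The aldolase aldoc.L (log2 change 0.59) and ldhb.S, the other lactate dehydrogenase subunit (-0.73), were not called. The values of gapdh.S, pkm.S, aldoc.L and ldhb.S are given after they were seen. As this and the other gene lists were chosen with earlier results of these data known, their counts are no separate support.

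Of the 5 cytoskeleton probes, 1 was called higher, xnf7.L, and none lower, beside 1.14% of all probes called, and the median change was 1.43. This list names xnf7 and was chosen with earlier results known, so the count is no support for a cytoskeletal theme. The beta-tubulin tubb4b.L had little spread between arrays, at 8803, 9442 and 9616 in controls and 23462, 29041 and 23123 with PTU. Its 2 spots agreed less on some arrays, at 13509 and 5374 on control replicate 2 and 18637 and 28288 on PTU replicate 1. The groups were far apart against their own spread, 9287 ± 428 (SD, n = 3) and 25209 ± 3323 (SD, n = 3), but the probe was not called (log2 change 1.43, SE 0.46, limma adjusted p = 0.143). PTU arrays were also higher at 24 h, by 0.87, and at 48 h, by 1.20 on the log2 scale. The difference between times was 0.39, and the group means with PTU were 15174, 19380 and 25209 beside control means of 8395, 8330 and 9287.

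The list of axon growth and myelin genes had 4 probes, none called, beside 1.14% of all probes, with a median change of 1.29. At an unadjusted p under 0.05, 2 were higher (7.06% of all probes) and none lower (4.33% of all probes). The growth-cone protein gap43.S, a marker of growing axons, measured 1086, 14324 and 12639 in controls and 21923, 28365 and 27057 with PTU (log2 change 2.11, SE 0.62, limma adjusted p = 0.105). All PTU arrays were above all controls, and control replicate 1 was far under the other 2 on both of its spots. Myelin basic protein, mbp.S, read 5025, 2768 and 4223 in controls and 7410, 20907 and 23070 with PTU (log2 change 1.96, SE 0.83, limma adjusted p = 0.348). Its mean with PTU was 2830 at 24 h, 5347 at 48 h and 17129 at 96 h, while control means were 4006, 2638 and 4005. The 48 h PTU mean rests on replicates 1 and 2, at 3043 and 7652, since replicate 3 has no value. This probe was singled out after its values were seen. Outside the list, the adhesion molecule cntn1.L, found on axons, read -533, -402 and 524 in controls and 3045, 648 and 1663 with PTU (log2 change 3.49, SE 1.23, limma adjusted p = 0.181).

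As a check on the tissue, gap43.S was above background on 5 of the 6 arrays and mbp.S on all 6, so neuronal and glial transcripts were present in both groups. The summed level of the neuronal markers, gap43.S and ina.S, was 1624 to 14081 on control arrays and 22565 to 29106 on PTU arrays. That of the markers of glia and neural progenitors, mbp.S and msi1.S, was 3539 to 5196 and 11066 to 25770. This second sum holds mbp.S alone on control replicate 3, since msi1.S has no value there, and on control replicate 1 it includes msi1.S below 0. Both sums moved in the direction of the called probes, and their part in those results was not tested. Growth hormone, gh1.S, was above background on all 6 arrays, at 6208, 5888 and 10794 in controls and 1926, 2692 and 9921 with PTU, so the groups overlapped (log2 change -0.96, SE 0.60, not called). Prolactin, prl.1.L, the other pituitary marker, was above background on 1 array, at -249, 1410 and -807 in controls and 1845 and 926 on the 2 PTU arrays with a value (log2 change 2.87, SE 1.59, not called). The globin hbd and the gut marker fabp2.L were each above background on 1 of 6 arrays and the retinal gene crx on none.

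Among 8 probes of neural progenitor and forebrain regulators none was called, beside 1.14% of all probes, and the median change was 0.46. At an unadjusted p under 0.05, 2 were higher (7.06% of all probes) and 1 was lower (4.33% of all probes). The LIM-only factor lmo3.S measured -421, 4407 and 524 in controls and 2600, 6317 and 4248 with PTU (log2 change 2.89, SE 0.85, limma adjusted p = 0.105), so control replicate 2 lay inside the PTU range. The RNA-binding progenitor protein msi1.S gave -1486 and 2428 on the 2 controls with a value and 3656, 1417 and 2700 with PTU (log2 change 2.60, limma adjusted p = 0.420). In the other direction, id2.L, which blocks basic helix-loop-helix factors and so holds back differentiation, measured 5804, 5819 and 4960 in controls and 2604, 1992 and 1890 with PTU (log2 change -1.34, SE 0.53, limma adjusted p = 0.245). Its groups did not overlap, and its change was -1.47 at 24 h and -1.61 at 48 h, so that the difference between times was 0.20.

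None of the 6 Wnt pathway and corepressor probes was called, beside 1.14% of all probes, and their median change was -0.48. At an unadjusted p under 0.05, 1 was higher (7.06% of all probes) and 2 were lower (4.33% of all probes). Casein kinase 1 alpha, csnk1a1.L, which marks beta-catenin for destruction, measured 11397, 12937 and 9052 in controls and 2770, 2129 and 7602 with PTU (log2 change -1.61, SE 0.52, limma adjusted p = 0.143). The lower PTU level was present throughout, with changes of -2.10 at 24 h, where it was among 7 of 435 probes called (1.61%), all lower (limma adjusted p = 0.0407), and -1.13 at 48 h, and a difference between times of 0.00. The corepressor ctbp2l.S gave 3400, 734 and 3376 in controls and -489, -313 and 287 with PTU, and controls were at least 1.81-fold higher (log2 change -4.18, SE 1.22, limma adjusted p = 0.105). It had also been lower at 24 h, by -3.09, and at 48 h, by -3.83. At those times all 6 PTU arrays of ctbp2l.S lay below 0, and only 2 of 6 control arrays were above background. The size of these changes therefore depends on the offset. The Wnt receptor fzd2.S was near background, at -441, -697 and 367 in controls and 1565, 578 and 1237 with PTU (log2 change 3.15, SE 1.08, limma adjusted p = 0.166).

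Of the 14 cell cycle probes, btg1.S was called higher and none was called lower, beside 1.14% of all probes called. The list names btg1 and was chosen with earlier results known, so that count is no separate support. There were 5 changes above 0 and 9 below, against 215 and 222 over all probes, and the median was -0.43. Cyclin E1, ccne1.L, which drives entry into DNA synthesis, measured 3504, 2074 and 463 in controls and -547, -73 and 65 with PTU, at least 1.36-fold higher in controls (log2 change -4.24, SE 1.48, limma adjusted p = 0.179). Outside this list, the nuclear envelope protein lmnb1.L gave 6494, 4141 and 1093 in controls and 425, -737 and -280 with PTU. Controls were at least 2.71-fold higher (log2 change -4.60, SE 1.29, limma adjusted p = 0.105), and its groups did not overlap. The Src-inhibiting kinase csk.L was above background on all 3 controls and no PTU array, at 2553, 2959 and 3659 against 1069, -435 and -804, at least 2.63-fold higher in controls (log2 change -4.16, SE 1.64, limma adjusted p = 0.245). The homeobox gene nkx2-2.S, which acts in the ventral neural tube and in oligodendrocyte precursors, had only 2 values a group, 2393 and 3775 in controls and -520 and -661 with PTU (log2 change -5.51, SE 1.71, limma adjusted p = 0.138). On PTU replicate 1 its only filled spot read 3667, which is as high as the controls. With that spot counted, the log2 change of nkx2-2.S was -3.58 (limma adjusted p = 0.427), and on even spots it was -1.80 (limma adjusted p = 0.800). Changes of ccnh.L (-3.12), kif2c.S (-2.84), clock.L (-2.79) and mnat1.L (-2.67) each had a limma adjusted p of 0.425, and their groups overlapped.

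None of the 7 probes of the thyroid hormone list was called or had an unadjusted p under 0.05. Over all probes those shares were 1.14% and 11.4%, so finding none among 7 is no result about this list. The median change of the 7 was -0.10, none was above background on all 6 arrays, and 2 were above it on none. The Krüppel-like factor klf9.L, a direct target of thyroid hormone in tadpole brain, measured -453, 2537 and 1492 in controls and 507, -48 and 198 with PTU (log2 change -1.58, limma adjusted p = 0.704). The groups overlapped, with control replicate 1 the lowest of the 6 arrays. The bZIP factor thibz.L, induced by the hormone in Xenopus, gave 2218, -52 and -530 in controls and 4668, 154 and -524 with PTU (log2 change 0.92, limma adjusted p = 0.852). Replicate 1 was the bright one in both groups.

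The retinoid X receptor rxrb.L, the partner of the hormone receptor, read 4439, 480 and 1039 in controls and 1499, 387 and 3037 with PTU (log2 change -0.10, limma adjusted p = 0.980). The glucocorticoid receptor nr3c1.L had a log2 change of -0.34 (limma adjusted p = 0.939), the metalloproteinase mmp9.1.S one of -0.47 (limma adjusted p = 0.939) and thyrotropin-releasing hormone, trh.S, one of 1.44 (limma adjusted p = 0.728), and each of these was within the spread between arrays. The corticotropin-releasing hormone binding protein crhbp.S was below 0 on all 6 arrays, so no change could be estimated. A change in these genes was not detectable at this signal. A further group of 4 probes held thyroid receptor partners and genes known to fall with the hormone. None was called, beside 1.14% of all probes, and the group's median was -0.13. Its brightest member, the nucleosome-binding protein hmgn3.L, measured 35117, 41832 and 38472 in controls and 74739, 73909 and 56536 with PTU (log2 change 0.82, SE 0.44, limma adjusted p = 0.464).

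No probe of the remaining lists was called, apart from cct3.S, the only chaperone probe, beside 1.14% of all probes called. The 6 neuropeptide and pituitary hormone probes had a median change of 0.72. Neuropeptide Y, npy.S, which stimulates feeding, measured -1657, 1917 and -993 in controls and 367, 2520 and 2164 with PTU (log2 change 2.71, SE 0.90, limma adjusted p = 0.146), and its groups overlapped. At 24 and 48 h its controls had averaged 4201 and 3680 and its PTU arrays 1774 and 1534, so that PTU was then below control. The 10 probes for RNA binding and translation, covering 6 genes, had a median of 0.10. The 5 apoptosis probes had a median of -0.38, and the initiator caspase casp9.S read 265, -489 and 450 in controls and 1145, 533 and 1103 with PTU (log2 change 2.06, limma adjusted p = 0.466). The gut fatty acid binding protein fabp2.L gave -52, -37 and -1016 in controls and 1386, 636 and 1737 with PTU (log2 change 4.18, SE 1.37, limma adjusted p = 0.143), and the zinc finger protein znf208.L gave 1529, -692 and -445 and 2194, 1181 and 956 (log2 change 2.88, SE 1.06, limma adjusted p = 0.223).

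**Figure D3:**
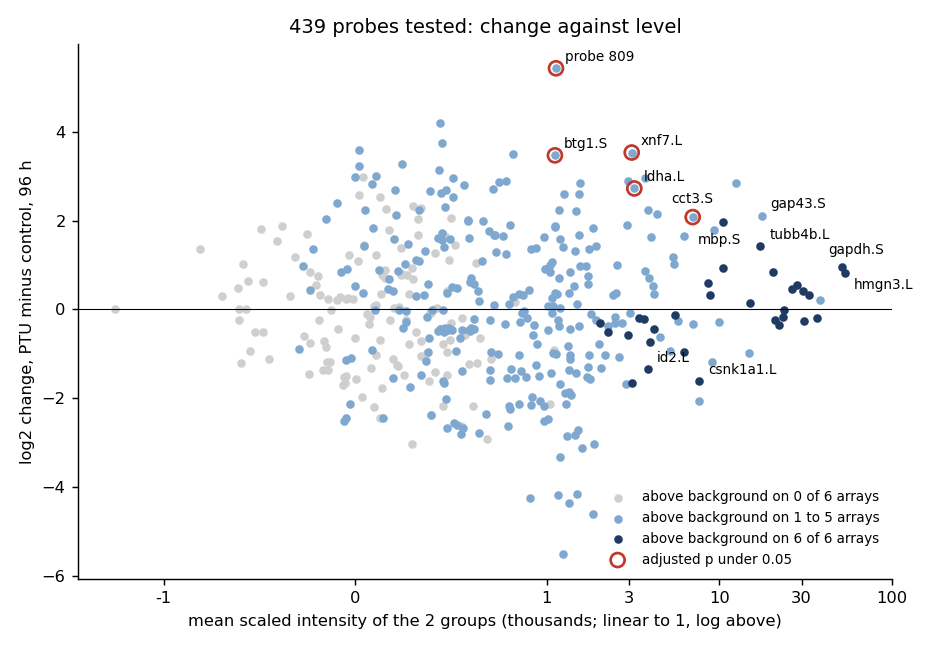
Fitted log2 change, PTU minus control at 96 h, of the 439 probes tested against the mean scaled intensity of both groups (linear near 0 and log above, as the axis states); colour gives the number of the 6 arrays on which a probe was above background and rings mark the 5 called probes. Changes range from -5.51 to 5.42 over all probes and from -1.66 to 1.96 over the 31 probes that cleared background on each of the 6 arrays.

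The brightest probes showed how far the precision reached. For the 31 probes above background on all 6 arrays, the median SE was 0.50 on the log2 scale, against 1.34 over all 439 probes. None of the 31 was called in the fit reported, beside 1.14% of all 439 probes, and their median change was -0.16. That depended on the processing. In 21 alternative fits tubb4b.L was called in 4, csnk1a1.L in 3, and hmgn3.L and id2.L in 1 each. With a trend and robust variance gapdh.S was called too (limma adjusted p = 0.00889). An unadjusted p under 0.05 was found for 5, beside 11.4% of all probes. The groups did not overlap with PTU higher for 4 of the 31 (12.9%), mbp.S, tubb4b.L, gapdh.S and hmgn3.L. They did not overlap with PTU lower for 3 (9.68%), id2.L, csnk1a1.L and probe 187. Over all 439 probes those shares were 7.97% and 5.69%. All 5 called probes were above background on some of the 6 arrays but not on all.

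**Figure D4:**
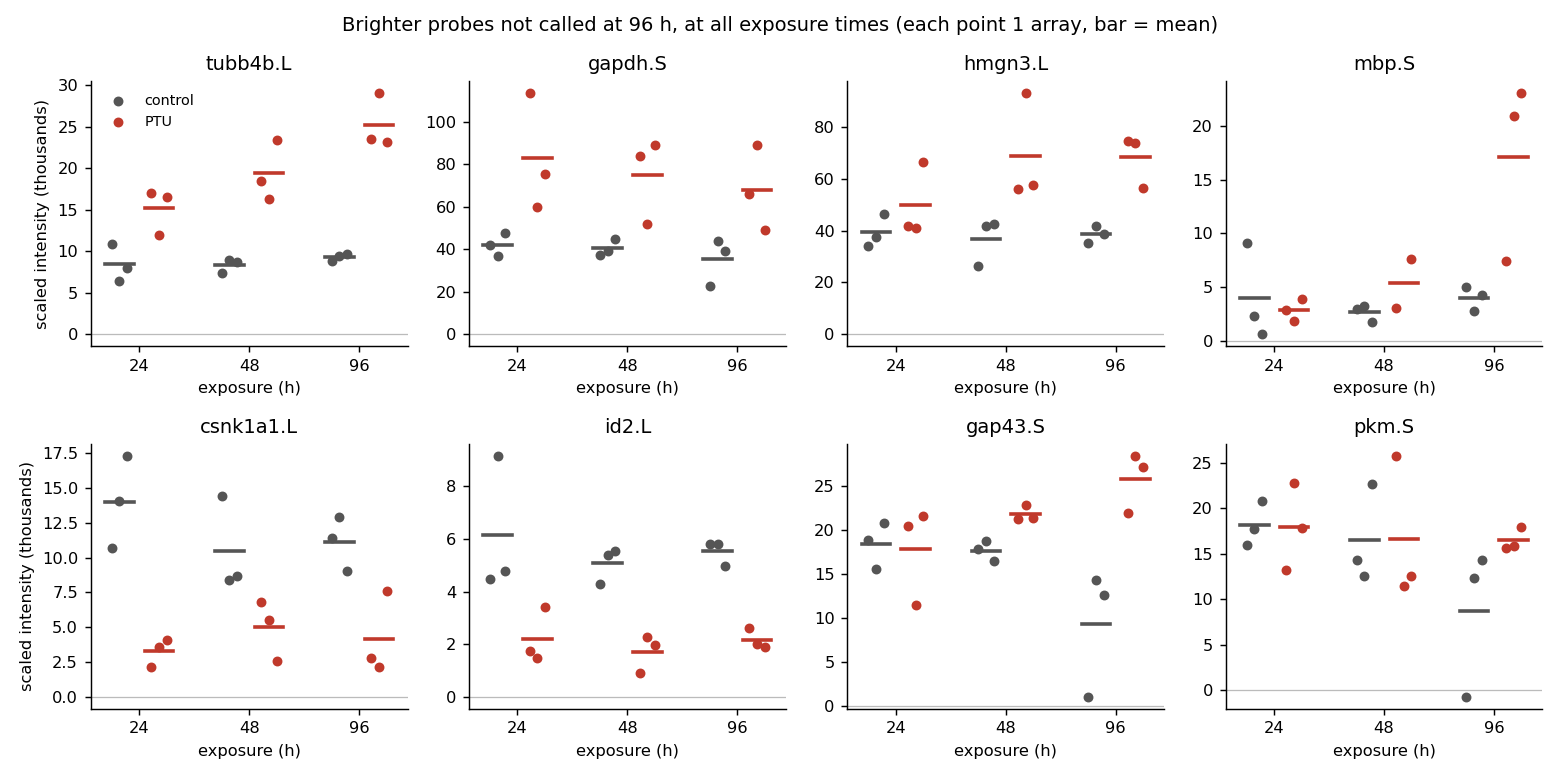
Scaled intensity of probes with a bright signal on each control and PTU array at 24, 48 and 96 h; points are arrays and bars are group means. The controls of tubb4b.L stay level (means 8395, 8330 and 9287) while PTU arrays lie above them at each time, and mbp.S with PTU has means of 2830, 5347 and 17129. The mbp.S mean at 48 h leaves out PTU replicate 3, which has no value.

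The ribosomal protein gene rpl8.S was on the array as 5 probes, which gives a check within arrays. Its 5 fitted changes at 96 h were between -0.20 and 0.41 on the log2 scale, and none had an unadjusted p under 0.05. The rpl8.S probes with a value on every array are among the 18 that set the scaling. Small changes there are thus no separate check of the scaling. On control replicate 1 the 4 probes with a value disagreed, with 51041 on the brightest and 5781 on the dimmest, a ratio of 8.83. On the other 34 arrays that ratio was 1.38 to 3.45, with a median of 1.77. Control replicate 1 was also the array on which gap43.S and pkm.S were low.

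**Figure D5:**
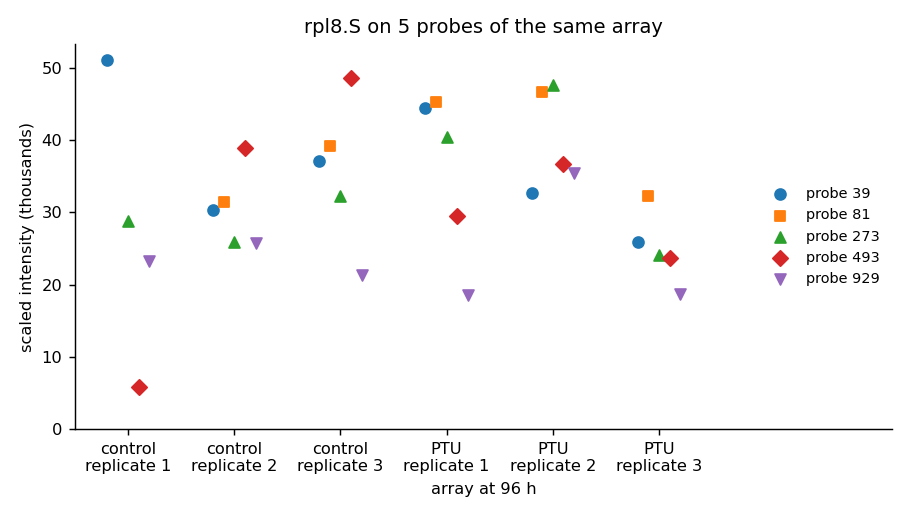
Scaled intensity of the rpl8.S probes on each of the 6 arrays, on a linear axis from 0; each marker shape is a probe. On control replicate 1, where 4 of the 5 probes have a value, they run from 5781 to 51041, a ratio of 8.83, against 1.38 to 3.45 on the other 34 arrays of the series.

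MMI and PER, usually methimazole and perchlorate, are other inhibitors of thyroid hormone synthesis and were measured at 96 h against the same control arrays and at other doses, so their values stand beside those of PTU without a comparison. The 96 h means of cct3.S were 2636 in controls, 11379 with PTU, 8153 with MMI and 6749 with PER. Those of xnf7.L were 1132, 5077, 6546 and 5336 in the same order. For ldha.L they were 957, 5471, 2665 and 5087, and for btg1.S they were 299, 1929, 2233 and 1415. Probe 809 had -737, 2996, 1672 and 3779. The control mean was the lowest of the 4 for all 5 called probes. The calls selected low values on these same control arrays, so that order is no separate support. For mbp.S, by contrast, the MMI mean of 4784 was near the control mean of 4005, with 10764 for PER and 17129 for PTU. For csnk1a1.L the means were 11128, 4167, 9076 and 7429.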

How the data were processed

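The authors deposited 1 table of linear, background-subtracted intensity values, whole numbers for 898 spots on each of 35 arrays. Per the labels' protocols, amplified brain RNA was reverse transcribed with 32P and each target was put on an array with a single channel. How background was taken, whether arrays were scaled and why cells are empty is not given in the sources used here. Gene names came from the platform annotation, updated through the gene table of the assembly Xenopus_laevis_v10.1, and 3 genes kept the array's symbol.

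Both spots of a probe were averaged. Negative probe values gave the background SD of an array, as their root mean square. Arrays were scaled by the median of the 18 probes above background on all 35 arrays. Negative values became 0, and 67.5, which is the 5th percentile of positive values, was added before taking log2. These log2 values were computed from the deposited intensity values, and fitted changes of dim probes depend on the offset, which can make them too small or too large. limma 3.58.1 in R 4.3.3 (lmFit, eBayes) fitted 12 groups over all 35 arrays, with Benjamini-Hochberg adjustment over all probes with at least 2 values in each group compared, and calls at an adjusted p under 0.05. The spread of a probe is thus shared by all groups. Plots used Python 3.11.15 and matplotlib 3.10.9.

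The text names all called probes, up to 12 higher and 12 lower named probes with the smallest unadjusted p under 0.05, all thyroid hormone list members and the member with the smallest p in each other list. Other probes are named as chosen after their values were seen, or stand in the marker and brightest-probe checks. The comparison, gene lists and markers were chosen with earlier results of these data known. Array number, 3 a group, limits the precision. Alternatives covered scaling, offset, filter, spots, arrays in the fit, a replicate block and leaving out each array.

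For replicate numbers shared by PTU and control, the correlations of deviations from group means were 0.13, 0.105 and -0.01, so the numbers were not taken to pair the samples.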

Additional observations from a re-analysis of the deposited data

Results flagged for a closer look

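For 2 probes the PTU change at 96 h differed from the mean of the changes at 24 and 48 h by the test of that difference, out of 433 tested. For probe 809 the difference was 5.68 on the log2 scale (limma adjusted p = 3.08e-07), with changes of 0.14 at 24 h, -0.66 at 48 h and 5.42 at 96 h. All its 96 h controls lay below 0 and share 1 value on the log2 scale, so this p can be too small. For btg1.S the difference was 4.00 (limma adjusted p = 0.0447), with changes of -0.89, -0.17 and 3.47. For both probes 3 of 3 PTU arrays lay above all controls at 96 h, as for 35 of all 439 probes (7.97%). The test used these same values, so that gap is no separate support. The control means at 24, 48 and 96 h were 1892, 3430 and -737 for probe 809 and 2217, 2418 and 299 for btg1.S, and the PTU means were 2069, 2110 and 2996, and 1341, 2270 and 1929. At 24 and 48 h each of these probes was above background on only 3 of 6 control arrays. The background SD of the 96 h controls, 987 to 1102, was above that of the PTU arrays, 338 to 739, and its part in these differences was not tested.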

How the results depend on the processing

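The count of probes called at 96 h was recomputed under 23 alternatives. Of these, 2 (array weights, and the mean of either spot where 1 is empty) were chosen after seeing the data. The count of probes whose change differed between times was recomputed only in fits that held the 24 and 48 h arrays. The cause of a move was not tested. The count of 5 called probes became 1 with the all-probe median, 14 (8 higher, 6 lower) with an offset of the median background SD, 603, 15 (10 higher, 5 lower) among 97 probes above background on at least 3 of 6 arrays, 0 with only the 6 arrays, 1 with control and PTU arrays only, 11 (8 higher, 3 lower) on even spots, 14 (11 higher, 3 lower) with a trend and robust variance, and 3 with array weights. With 0 calls, 29 probes had an unadjusted p under 0.05 in limma. The labels' own rule, a change of at least 2-fold with a limit on the half-range, took 24 probes (13 higher, 11 lower) at a limit of 1.1, sharing 2 with the 5 called, and 64 (33 higher, 31 lower) at 1.7, sharing 3. With a replicate block within time the count was 4, as cct3.S reached a limma adjusted p of 0.0547. Those numbers were not taken to pair the samples, and not every sample correlated best with its own.

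Leaving out 1 array in turn gave 2 to 18 calls. The count was 18 (13 higher, 5 lower) without control replicate 3 and 2 without PTU replicate 2 or without PTU replicate 3. In those last fits cct3.S had limma adjusted p-values of 0.108 and 0.0667, xnf7.L 0.0618 and 0.0667, and btg1.S 0.0527 and 0.0667. Without control replicate 1, cct3.S (0.0518) and btg1.S (0.0932) lost their calls, and without control replicate 2, btg1.S (0.0866) and xnf7.L (0.106). All 5 stayed higher with PTU in each of the 21 alternatives fitted with limma. As the groups of all 5 did not overlap, leaving out an array could not turn a direction. The shared direction is thus no separate support. Probe 809 was called in 20 of them, ldha.L in 17, xnf7.L in 14, btg1.S in 13 and cct3.S in 11.

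The count of 2 probes whose change differed between times became 1 with values as deposited, the all-probe median, quantile normalization, control and PTU arrays only, or without the 2 nearly identical PER arrays, whose spots rank-correlated at 0.999. With the offset at the median background SD, or 4 times larger, the count stayed 2. In each of those fits only 1 of the 2 was among the probes reported. It became 5 with the filter and 5 on odd spots, and 1 to 6 leaving out 1 array: 1 without PTU replicate 2 or 3, 5 without control replicate 1 or PTU replicate 1, and 6 without control replicate 3. With the filter, list medians moved to 1.58 for cell cycle (4 probes) and -0.77 for neural progenitors (5 probes). As the filter used the same 96 h values, neither its count nor these medians are separate support. On odd spots they moved to 1.80 for apoptosis and 2.77 for chaperones, and leaving out 1 array took apoptosis from -0.82 to 1.23.

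Uncalled thyroid hormone genes turned direction. The change of rxrb.L was 0.15 with the all-probe median, 0.43 with quantile normalization and 0.37 on even spots, and -0.10 became 0.74 without control replicate 1 and 0.66 without PTU replicate 2. That of mmp9.1.S was 1.63 on odd spots, 0.76 with array weights, 0.73 without control replicate 1 and 0.37 without PTU replicate 3. That of nr3c1.L was 1.51 on even spots, 0.45 and 0.39 without control replicate 2 and 3, and 1.01 without PTU replicate 1. That of trh.S was -0.11 on odd spots, and that of thibz.L was -0.84 without PTU replicate 1. Over all single arrays left out, thibz.L ran from -0.84 to 2.61, nr3c1.L from -1.86 to 1.01, rxrb.L from -0.78 to 0.74 and mmp9.1.S from -1.87 to 0.73.

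The all-probe median moved the median change of all probes from -0.01 to 0.11 and that of the 31 probes bright on all 6 arrays from -0.16 to 0.13. Signal over background limits this comparison: 131 of 439 probes were above background on none of the 6 arrays.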

Other observations

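The CDK-activating kinase, which switches on cyclin-dependent kinases and is part of a general transcription factor, was on the array with all its subunits, and their lower fitted levels were noticed after the values were seen. The catalytic subunit cdk7.L measured 1066, 2367 and 529 in controls and 465, -47 and 434 with PTU (log2 change -2.17, limma adjusted p = 0.521). Its cyclin, ccnh.L, gave 6413, 3811 and -530 in controls and 494, -81 and -502 with PTU, and the assembly factor mnat1.L gave 4752, 1022 and -1947 and 233, -91 and -596. None was called, and the controls of ccnh.L and mnat1.L spread over more than the difference between the groups.

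A pair of probes without a gene name, singled out after their values were seen, had gaps between the groups, and neither was called. Over all 439 probes, PTU lay above control without overlap for 7.97% and below it for 5.69%. Probe 261 measured 1442, 460 and 705 in controls and 6134, 6120 and 7376 with PTU, at least 3.04-fold higher with PTU (limma adjusted p = 0.228). Probe 925 was above background on all 3 controls and no PTU array, at 3105, 2234 and 3110 against 62, 238 and -706, at least 2.43-fold higher in controls (log2 change -4.36, limma adjusted p = 0.138). Its PTU means were -473 and -294 at 24 and 48 h, beside control means of 2943 and 1476.

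The average intraclass correlation of the 96 h control arrays on the linear scale, with both spots of a probe averaged, was 0.850. This was the lowest of the 12 groups, and that of the 96 h PTU group was 0.929. The labels state an average of not less than 0.82, which may have been computed otherwise, as differences between spots do not enter the values here.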
